A study of Mus musculus with 12 samples.

Results

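The cytosolic ribosomal protein genes encode the proteins of the ribosome that translates nuclear messages. They were taken by name: protein-coding entries called Rpl or Rps with a number, Rplp0 to Rplp2 and Rpsa, leaving out the S6 kinases. The rule found 99 of 25556 genes. Of these, 46 encode proteins of the large subunit and 31 proteins of the small subunit, and these 77 are called the ribosomal protein genes here. A further 8 entries are paralogs (Rpl3l, Rpl7l1, Rpl22l1, Rpl36al, Rpl39l, Rps4l, Rps27l and Rps27rt), and 13 carry pseudogene names although the files label them protein-coding. The last entry, Rps19bp1, encodes a protein that binds RPS19 and no part of the ribosome, and is set apart. The rule used names only and no measured value. Of the 99 entries, 89 passed the filter on low counts, all 77 ribosomal protein genes among them.

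RNA came from the brains of male C57BL6 mice, with the brain region not given in the sources used here. Adolescent animals, from postnatal day 30 to 44, were injected daily with THC (tetrahydrocannabinol, the cannabis constituent that causes intoxication; 5 mg/kg) or with its vehicle, 8% Tween-80 in saline. A single injection of saline or of lipopolysaccharide (LPS, an endotoxin of Gram-negative bacteria used to evoke inflammation; 0.33 mg/kg) followed at day 70, and tissue was collected after 24 h. The 4 groups of 3 libraries were vehicle then saline (Veh_Ctrl), THC then saline (THC_Ctrl), vehicle then LPS (Veh_LPS) and THC then LPS (THC_LPS). All groups were thus injected in adolescence and again as adults. The labels do not say whether libraries came from separate animals, so p-values measure the spread between libraries.

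Each ribosome is built from a large and a small subunit and most of their proteins are present once per particle. In mammals these messages begin with a C followed by a run of pyrimidines, the 5′ terminal oligopyrimidine tract, through which their translation follows the nutrient-sensing kinase mTOR. The genes have left many processed pseudogenes in the mouse genome, and reads can match these copies as well as the gene. In bulk tissue, fewer cells of a type and less RNA per cell cannot be told apart.

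The tract was looked for in RefSeq promoters (GRCm38.p6), which reach from 250 bases before to 50 bases after an annotated start. A promoter was at hand for 57 of the 77 genes. A C followed by at least 4 pyrimidines, beginning within 2 bases of the start on the gene's strand, was found for 20 of them (35.1%), against 10.6% of all 27025 genes with a promoter. Among large subunit genes 13 of 34 had it and among small subunit genes 7 of 23. The starts of 8 genes are shown because they carry this shared feature, from 10 bases before to 20 bases from the start, with the C and its pyrimidine run in capitals.
Rps6 (chr4:86857348-86857377, minus strand): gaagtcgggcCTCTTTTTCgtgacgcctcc
Rps18 (chr17:33955646-33955675, minus strand): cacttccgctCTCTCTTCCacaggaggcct
Rps10 (chr17:27635225-27635254, minus strand): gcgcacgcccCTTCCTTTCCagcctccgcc
Rps27 (chr3:90213629-90213658, minus strand): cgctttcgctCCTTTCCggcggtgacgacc
Rplp2 (chr7:141447641-141447670, plus strand): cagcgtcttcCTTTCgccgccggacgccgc
Rpl15 (chr14:18270967-18270996, minus strand): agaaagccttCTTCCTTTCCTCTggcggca
Rpl28 (chr7:4792955-4792984, plus strand): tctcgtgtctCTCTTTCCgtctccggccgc
Rpl38 (chr11:114668570-114668599, plus strand): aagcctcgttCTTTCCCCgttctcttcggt
The runs differ in length, from 5 bases in Rplp2 to 13 in Rpl15. A second motif was CCGGAAG on either strand, the core of sites for ETS family factors. It stood anywhere in the 300 bases of at least 1 promoter in 24 of the 57 genes (42.1%). Of all genes with a promoter, 9.93% had it. The 2 motifs were searched apart and may overlap. The 20 genes with the tract at the start had a median log2 fold change of -0.33 for LPS after THC and the other 37 of -0.28, and for LPS after vehicle the medians were 0.10 and 0.08. A start annotated more than 2 bases off would hide the tract, so the 37 may include genes that carry it. These medians therefore cannot show whether changes differ with the tract.

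Levels between genes are compared as the deposited FPKM, which divides reads by gene length. The 77 genes had a median of 163 FPKM over the 12 libraries, against 5.82 for all tested genes, and 48 lay between 100 and 300 FPKM. Rplp1, a protein of the stalk that recruits elongation factors, was highest at 624 FPKM. Rps15 followed at 423, Rps14 at 399 and Rps27 at 354. At the other end, Rpl24 had 0.489 FPKM, Rpl35 8.99 and Rpl23a 16.5, although all belong to the large subunit. Rpl24 was counted with only 3 to 18 reads per library.

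Sequence shared with other genes was measured as the share of a gene's coding 50-base stretches that also occur in a transcript of another gene. It was above 0 in 76 of the 77 genes and at least 50% in 67. Rpl24 and Rpl23a shared all of theirs, with 9 and 28 other genes, and Rpl35 shared 91.6%. Rps27 and Rpl19 also shared 100% and stood at 354 and 324 FPKM. The part of shared sequence in these levels was not tested. Across the 77 genes, Spearman's rho of FPKM with the shared share was -0.141 and with gene length -0.506, as a description of genes that share libraries. The handling of reads that match several places is not given in the sources used here, so levels of these genes are uncertain.

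**Figure D1:**
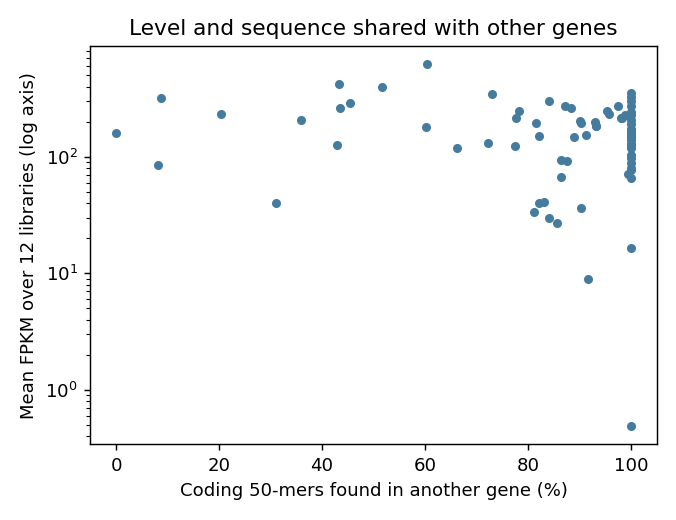
Mean FPKM over 12 libraries (log axis) against the percent of coding 50-base stretches found in another gene, 1 point per ribosomal protein gene (77). Genes with all of their stretches shared lie both at the bottom (Rpl24, 0.489 FPKM) and near the top (Rps27, 354 FPKM).

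The 12 libraries held 16.7 to 44.7 M assigned reads, and the 3 THC_LPS libraries held the fewest. Mitochondrially encoded genes took 4.11 to 9.11% of reads, highest in THC_LPS replicate 3. The 6 neuronal markers checked against the tissue label summed to between 4090 and 5530 CPM in all libraries. Pituitary markers, 7 in all, summed to 4160 CPM in Veh_LPS replicate 2 and to between 1.69 and 15.6 CPM in the others. The 5 blood leukocyte markers summed to between 2.93 and 6.17 CPM in the LPS libraries and to between 0.944 and 1.54 CPM in the saline libraries. The 24 Hox genes that mark the caudal nervous system summed to 0.314, 0.124 and 4.61 CPM in Veh_Ctrl, 12, 20.1 and 2.31 in THC_Ctrl, 29.4, 22.6 and 22.6 in Veh_LPS, and 19.8, 8.38 and 0.538 in THC_LPS. The 6 choroid plexus markers summed to between 370 and 690 CPM in Veh_Ctrl, 490 and 685 in THC_Ctrl, 626 and 646 in Veh_LPS, and 327 and 602 in THC_LPS. Erythrocyte markers summed to between 266 and 393 CPM in THC_Ctrl and to between 111 and 187 in THC_LPS. For astrocyte markers these ranges were 2950 to 3400 and 3460 to 4470 CPM, and for endothelial markers 211 to 225 and 263 to 324. Neuronal, oligodendrocyte and microglial markers overlapped between THC_Ctrl and THC_LPS. Several of these tissue markers thus differ between groups, and the part of tissue markers in the results below was not tested.

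Reads from the 99 entries made up 1.25% ± 0.0840 of a library in Veh_Ctrl, 1.39% ± 0.117 in THC_Ctrl, 1.39% ± 0.280 in Veh_LPS and 1.17% ± 0.0764 in THC_LPS (SD, n = 3). By library the shares were 1.21, 1.35 and 1.20% in Veh_Ctrl, 1.29, 1.52 and 1.36% in THC_Ctrl, 1.71, 1.22 and 1.23% in Veh_LPS, and 1.24, 1.09 and 1.18% in THC_LPS. The 3 THC_LPS libraries lay below the 3 THC_Ctrl libraries, and the Veh_LPS mean was raised by its replicate 1.

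**Figure D2:**
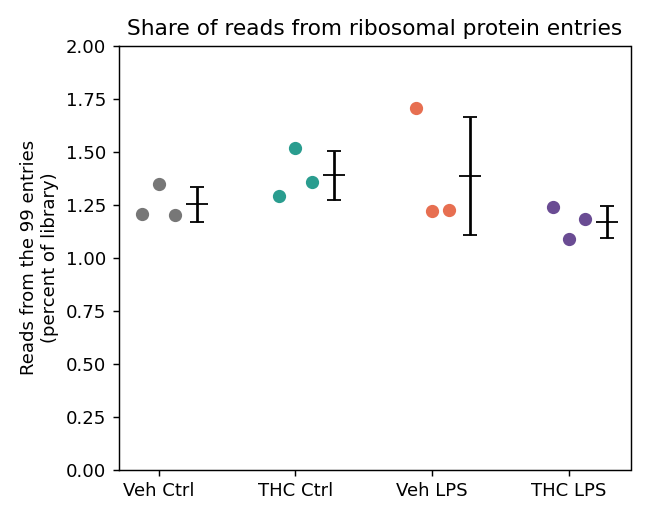
Percent of each library's reads assigned to the 99 entries, by group. Points are libraries and the bar beside them is the mean with its SD (n = 3); Veh_LPS replicate 1 stands highest at 1.71%.

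The ribosomal protein genes moved together within a library. For each gene, its log2 CPM (counts scaled to library size with TMM) was set against its median over the 12 libraries. In Veh_LPS replicate 1 the 77 genes had a median deviation of 0.49, 76 were above their median, and 54 had their highest value of all libraries there. THC_Ctrl replicate 2 followed with a median of 0.29 and 11 highest values. In THC_LPS replicate 2 all 77 were below their median, by 0.26 at the median, and 39 had their lowest value there. The other libraries outside THC_LPS replicate 3 had medians between -0.08 and 0.15. Large and small subunit genes followed each other, with medians of 0.44 and 0.50 in Veh_LPS replicate 1 and of -0.26 in both in THC_LPS replicate 2.

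**Figure D3:**
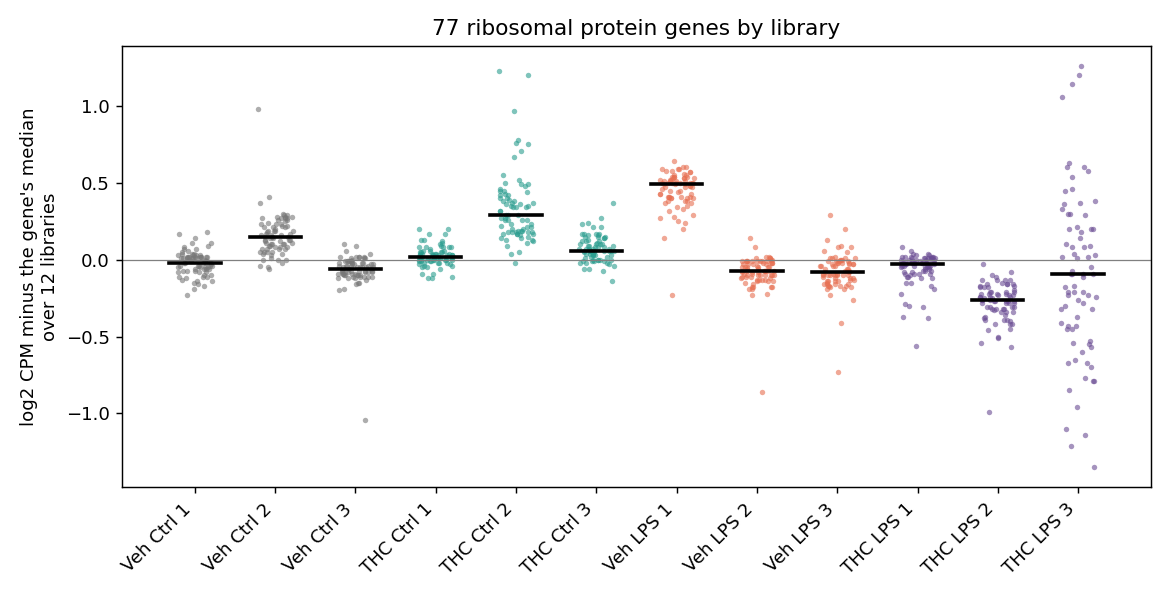
Deviation of log2 CPM of each of 77 ribosomal protein genes (points) from its own median over 12 libraries, by library, with the median over genes as a bar. Veh_LPS replicate 1 lies highest (0.49), THC_LPS replicate 2 lowest (-0.26), and THC_LPS replicate 3 is spread from -1.35 to 1.26.

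Other gene groups moved with these libraries. In Veh_LPS replicate 1, mitochondrially encoded genes had a median deviation of 0.51, nuclear oxidative phosphorylation genes 0.25, mitochondrial ribosomal proteins 0.19 and other translation genes, many with the same tract, 0.18, while ribosome biogenesis genes stood at 0.01. In THC_LPS replicate 2 the same groups had -0.03, -0.31, -0.23, -0.14 and -0.03. Deviation also followed gene length among all other genes, with a rho of -0.305 in Veh_LPS replicate 1 and 0.278 in THC_LPS replicate 2. With each library's length trend removed, the medians of the 77 genes were 0.34 and -0.14. The part of length in the remaining difference was not tested.

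THC_LPS replicate 3 differed in kind, since its genes spread in both directions. The interquartile range of the 77 genes was 0.655 on the log2 scale there, against at most 0.239 in any other library. Rps19, needed for maturation of the small subunit, stood 1.35 below its median and Rpl36 1.21 below. Rpl35 stood 1.26 above, Rps23, a protein of the decoding centre, 1.20 above and Rps29 1.14 above. Among all other genes, deviation in this library had a rho of -0.759 with GC content, and among the 77 genes of -0.351. The 25 genes of lowest GC (41.3 to 49.2%) had a median of 0.10 and the 26 of highest GC (54.0 to 60.8%) of -0.42. After both trends were removed the spread was still 0.579.

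**Figure D4:**
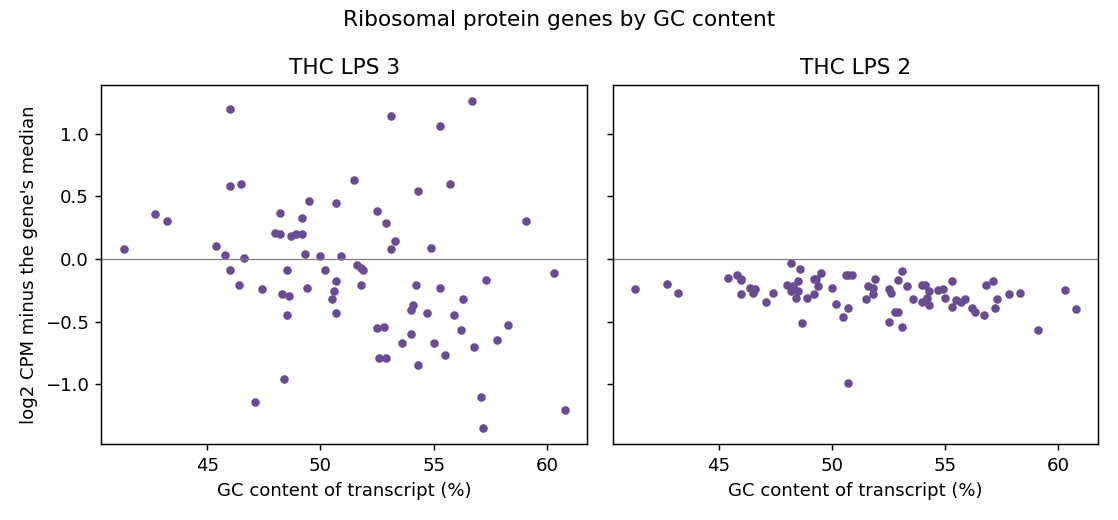
Deviation of log2 CPM from each gene's median against GC content of the transcript for 77 genes, in THC_LPS replicate 3 (left) and THC_LPS replicate 2 (right). Values in replicate 3 spread from -1.35 to 1.26 and are lower at high GC (rho -0.351), while in replicate 2 all lie below 0.

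The first comparison asked what LPS did in brains of mice given THC in adolescence. EdgeR's quasi-likelihood test called none of the 89 tested members at an adjusted p under 0.05, where it called 0.11% of all 17208 genes. At an unadjusted p under 0.05, 29 of 89 were past the threshold, all lower, against 9.61% of all genes lower and 19.4% in either direction. Of the 77 genes, 69 had a negative log2 fold change, the median was -0.28, and that of all tested genes was -0.01. With the length trend removed the median was -0.16 and 59 were negative. Then 16 of the 77 had an unadjusted edgeR p under 0.05 in place of 28, all lower. Of all 17208 genes, 1329 were lower at that threshold, and 17.3% passed it in either direction. For large subunit genes the median was -0.29 and for small subunit genes -0.28. In 35 of the 77 genes every THC_LPS library lay below every THC_Ctrl library, 19 of the large and 16 of the small subunit, against 13.5% of all genes. With the length trend removed this count was 20 (11.3% of all genes), and with GC and length trends removed 21 (13.1%). Other tools called more: DESeq2 called Rps28 (adjusted p 0.0487, against 0.651% of all genes called lower), and voom with sample weights called 11 members lower, against 2.54% of all genes. Leaving out THC_Ctrl replicate 2 brought the median of the 77 to -0.19. The count at an unadjusted edgeR p under 0.05 fell from 28 to 7, all lower, against 9.05% of all genes in either direction. The median stayed negative, between -0.35 and -0.19, with each THC_Ctrl or THC_LPS library left out in turn. Veh_Ctrl and Veh_LPS libraries enter this comparison only through filter, scaling and estimated spread. Without any 1 of them the median was between -0.29 and -0.27.

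The 3 members with the smallest p were Rps28, Rpl27 and Rpl36. Rps28 had 56.2, 85.8 and 50.9 CPM in THC_Ctrl and 40.4, 37.2 and 40.1 CPM in THC_LPS. The groups did not overlap, and replicate 2 was the highest of THC_Ctrl. Its log2 fold change was -0.71 ± 0.21 (SE), with an edgeR adjusted p of 0.143, and it was -0.45 without that library. Rpl27 had 123, 167 and 125 CPM in THC_Ctrl and 106, 93.9 and 69.4 CPM in THC_LPS, without overlap, a change of -0.62 ± 0.19 (edgeR adjusted p 0.149). Rpl36 had 85.0, 124 and 91.5 CPM against 79.2, 64.0 and 36.4 CPM, a change of -0.74 ± 0.23 (edgeR adjusted p 0.149). For both, THC_LPS replicate 3 was the lowest library, and without it Rpl36 was at -0.45.

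Genes fixed by their role are given next for the same comparison, 15 in all, of which 13 had a negative log2 fold change, 5 an unadjusted edgeR p under 0.05 and none an adjusted edgeR p under it. Of the 38 genes named in this comparison, 29 moved by over 1.5 times or changed sign when 1 library was left out, 23 of them without THC_LPS replicate 3, 14 without THC_LPS replicate 2 and 13 without THC_Ctrl replicate 2. In the stalk, Rplp2 had 118, 146 and 125 CPM in THC_Ctrl and 105, 90.3 and 70.2 in THC_LPS, a change of -0.55 ± 0.18 without overlap. Rplp1 had a log2 fold change of -0.29 ± 0.16 and Rplp0, the stalk's base, of -0.36 ± 0.18. None of the 3 stalk genes passed edgeR's adjusted threshold, while voom with sample weights called Rplp2 (adjusted p 0.0456), and Rplp0 was at -0.13 without THC_LPS replicate 3. Of the proteins that carry the 5S rRNA and bind MDM2 when ribosome assembly is disturbed, Rpl5 had 151, 170 and 151 CPM against 148, 132 and 193 and Rpl11 141, 197 and 164 against 149, 114 and 187. For both the groups overlapped, with replicate 3 the highest of THC_LPS, and the changes were 0.00 ± 0.15 and -0.16 ± 0.19.

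Among small subunit genes, Rps3, at the entry of the mRNA channel, had 289, 344 and 292 CPM in THC_Ctrl and 260, 213 and 136 in THC_LPS, a change of -0.60 ± 0.21 that was -0.35 without THC_LPS replicate 3. Rps19 had 89.0, 106 and 101 against 89.3, 69.1 and 35.4 CPM, a change of -0.61 ± 0.24 that was -0.28 without THC_LPS replicate 3, with replicate 1 of THC_LPS inside the range of THC_Ctrl. Rps14, which like RPS19 serves small subunit maturation, had a log2 fold change of -0.42 ± 0.18. Rps6, the protein phosphorylated by S6 kinase, had a log2 fold change of -0.21 ± 0.15 and Rpsa, also known as the laminin receptor, of -0.22 ± 0.17. Of the 2 core large subunit genes, Rpl8 had a log2 fold change of -0.43 ± 0.17 and Rpl4 of 0.10 ± 0.13. Rpl4 was highest in THC_LPS replicate 3, at 418 CPM.

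At the tunnel exit, where the new chain leaves the ribosome, Rpl23a had 7.77, 19.9 and 7.66 CPM in THC_Ctrl and 8.01, 7.86 and 11.7 in THC_LPS, and Rpl35 7.56, 16.5 and 7.12 against 4.81, 5.2 and 17.3. THC_Ctrl replicate 2 was above the other THC_Ctrl libraries in both. The changes of -0.36 ± 0.33 and -0.19 ± 0.40 became 0.25 and 0.31 without it. Rpl41, the shortest ribosomal protein, had a log2 fold change of -0.18 ± 0.24 and of 0.12 without that library.

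The second comparison, THC against vehicle in mice given LPS, used the same THC_LPS libraries. EdgeR called none of the 89 members (0% of all genes), and 27 had an unadjusted p under 0.05, all lower, against 4.59% of all genes lower and 10.3% in either direction. The median of the 77 genes was -0.27 and 68 were negative. With the length trend removed the median was -0.15 and 58 were negative. Then 14 of the 77 had an unadjusted edgeR p under 0.05 in place of 26, all lower. Of all 17208 genes, 673 were lower at that threshold, and 8.87% passed it in either direction. In 7 genes the groups did not overlap, all lower in THC_LPS, Rpl36, Rpl37a, Rps18 and Rps28 among them, against 6.12% of all genes. Without Veh_LPS replicate 1 the median was -0.04, 44 of 77 were negative and none had an unadjusted p under 0.05, against 4.61% of all genes. Rpl37a had 170, 113 and 111 CPM in Veh_LPS and 109, 88.9 and 51 in THC_LPS, a change of -0.67 ± 0.22 (edgeR adjusted p 0.478). Rps18 had 146, 100 and 107 against 96.9, 81.8 and 58.4 CPM, a change of -0.58 ± 0.19, and the paralog Rpl36al 51.8, 38.0 and 34.6 against 34.5, 29.0 and 23.7 CPM, a change of -0.51 ± 0.16 (edgeR adjusted p 0.478 for both). In all 3 genes replicate 1 was the highest of Veh_LPS. Without it Rpl37a was at -0.44 and Rpl36al at -0.32, and without THC_LPS replicate 3 Rpl37a was at -0.40 and Rps18 at -0.38.

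LPS after vehicle gave no called member either, with 0.622% of all genes called. None of the 89 had an unadjusted p under 0.05, against 7.45% of all genes. The median of the 77 was 0.10, with 72 positive, and in none did the groups separate upwards (6.96% of all genes did). That count was 2 and 1 with the other scalings (1373 and 1383 of all 17208 genes). With the GC trend removed it was 3 (1424 of all genes), with the length trend removed 4 (1492) and with both removed 3 (1551). Without Veh_LPS replicate 1 the median was -0.10 and 71 were negative. Rps12 had 128, 142 and 128 CPM in Veh_Ctrl and 198, 141 and 138 in Veh_LPS, a change of 0.26 ± 0.14 (edgeR adjusted p 0.739), which was 0.07 without Veh_LPS replicate 1. Rps24 had 203, 197 and 189 against 289, 196 and 196 CPM, a change of 0.21 ± 0.14 (edgeR adjusted p 0.785), which was -0.01 without that library. Rpl24 stood at -1.03 ± 0.65 on the log2 scale (edgeR adjusted p 0.770) on 3 to 18 reads, and at -0.28 without Veh_Ctrl replicate 2.

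THC without LPS gave no called member, as for all genes (0%), and none of the 89 had an unadjusted p under 0.05, against 3.62% of all genes. The median of the 77 was 0.13, with 71 positive, and 0.03 with 54 positive when THC_Ctrl replicate 2 was left out. In 7 genes every THC_Ctrl library lay above every Veh_Ctrl library (Rpl7, Rpl14, Rpl26, Rplp0, Rps3a1, Rps6 and Rps24), against 5.96% of all genes. That count was 11 with either other scaling (6.43 and 6.78% of all genes), 9 with the GC trend removed (6.85%), 15 with the length trend removed (7.03%) and 17 with both removed (7.49%). A fit of the compared groups alone gave 9 of the 77 an unadjusted edgeR p under 0.05, all higher, against 8.44% of all genes in either direction. Rpl35 had a change of 0.65 ± 0.40, and of 0.15 without THC_Ctrl replicate 2. Rpl9-ps6 had 0.74 ± 0.44 and the set-apart Rps19bp1 -0.32 ± 0.16 (edgeR adjusted p 1.00 for each).

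The interaction asks whether the LPS difference depended on pretreatment. EdgeR called none (0% of all genes), and 20 of 89 members had an unadjusted p under 0.05, all lower, against 2.71% of all genes lower and 6.78% in either direction. The median of the 77 was -0.42, with 71 negative, and -0.28 with 69 negative once the length trend was removed. Without Veh_LPS replicate 1 it was -0.19 with 63 negative, and without THC_Ctrl replicate 2 it was -0.28 with 66 negative. In these 2 fits the count of the 77 at an unadjusted edgeR p under 0.05 fell from 19 to 1 and 2, all lower. The matching shares of all genes are not reported here. In the interaction test on all 12 libraries the 13 tested Hox genes had a median of -4.31, with 8 at an unadjusted p under 0.05, and the choroid plexus markers a median of -0.61. Rps28 had -0.86 ± 0.29, Rpl37a -0.83 ± 0.31 and Rpl37 -0.70 ± 0.27 (edgeR adjusted p 0.710 for each), and without THC_Ctrl replicate 2 Rpl37 was at -0.43. The 5 comparisons share their 4 groups, so their medians are not independent of one another. In the authors' deposited table, 89 members have an adjusted p, none under 0.05, the smallest being 0.081 for Rps28.

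**Figure D5:**
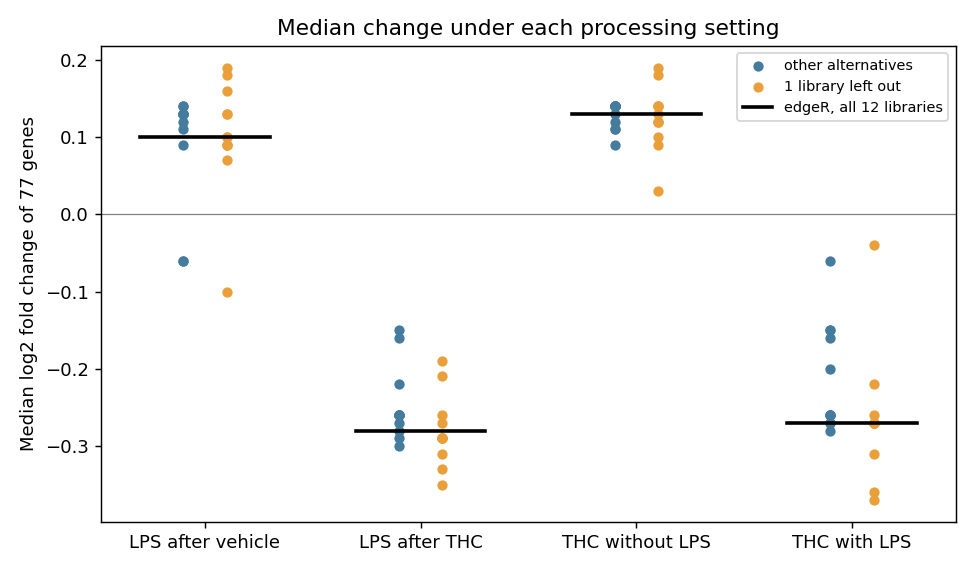
Median log2 fold change of the ribosomal protein genes in 4 comparisons. Black bars are edgeR on all 12 libraries (0.10, -0.28, 0.13 and -0.27), and yellow points leave out 1 library. Blue points are the other alternatives, 1 of which leaves out a pair of libraries. LPS after vehicle crosses 0. LPS after THC and THC with LPS stay below 0, and THC without LPS stays above it.

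Each paralog took fewer reads than its partner gene, a measure that leaves gene length out. In FPKM over the 12 libraries, Rpl22l1 had a mean of 46.0 against 40.2 for Rpl22. The other paralogs were below their partners in FPKM too. As a share of the reads of the pair, Rpl3l, a form of Rpl3 known from muscle, took 0.107% ± 0.0321 in Veh_Ctrl (SD, n = 3), Rps27l 8.50% ± 0.417, Rps4l 9.44% ± 0.453, Rpl7l1 15.7% ± 1.10, Rpl22l1 21.2% ± 1.33 and Rpl36al 33.9% ± 1.57. Rpl39l had 4 reads over all libraries. In THC_LPS the share of Rps27l was 8.29, 9.91 and 20.1% and that of Rps4l 9.41, 6.14 and 3.46%, with replicate 3 the extreme library in both. For LPS after THC, the changes were 0.42 ± 0.69 for Rpl3l, -0.12 ± 0.12 for Rpl7l1, 0.00 ± 0.23 for Rpl22l1, -0.48 ± 0.16 for Rpl36al, -0.61 ± 0.32 for Rps4l and 0.05 ± 0.26 for Rps27l. The values of their partners were -0.25 ± 0.14 (Rpl3), -0.19 ± 0.14 (Rpl7), -0.17 ± 0.15 (Rpl22), -0.21 ± 0.17 (Rpl36a), -0.32 ± 0.15 (Rps4x) and -0.47 ± 0.16 (Rps27). Rpl39 had a log2 fold change of -0.41 ± 0.21 and Rpl10 of -0.11 ± 0.15. EdgeR gave none of these an adjusted p under 0.05, while voom with sample weights called Rpl39 (adjusted p 0.0379) and Rps27 (0.0447). Leaving out THC_LPS replicate 1 took Rps4l to -1.21 (edgeR adjusted p 0.042), and leaving out replicate 3 took it to -0.22.

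The 5 highest by CPM were Rpl3, Rpsa, Rpl13a, Rpl4 and Rps2, and of these Rpl13a had a log2 fold change of -0.54 ± 0.19 and Rps2 of -0.40 ± 0.16 for LPS after THC. The 5 lowest of the tested entries were Rps26-ps1, Rpl24, Rpl3l, Rps12-ps3 and Rpl23a-ps3, all under 1 CPM. Their changes were -0.76 ± 0.64 for Rps26-ps1, -0.31 ± 0.65 for Rpl24, -0.74 ± 0.64 for Rps12-ps3 and -0.48 ± 0.44 for Rpl23a-ps3.

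Genes of the same machinery were set beside the members for LPS after THC. Fau, whose product is a ribosomal protein made as a fusion with a ubiquitin-like protein, had a log2 fold change of -0.40 ± 0.19, and Gnb2l1, the ribosome-bound scaffold RACK1, of -0.38 ± 0.16 (edgeR adjusted p 0.255 and 0.213). Of 76 mitochondrial ribosomal protein genes, 63 were negative with a median of -0.22, and of 82 nuclear oxidative phosphorylation genes 72 were negative with a median of -0.35. The 21 other translation genes had a median of -0.11, and the 29 ribosome biogenesis genes of -0.14 with 13 positive. In none of these lists was a gene called. Dkc1, which takes part in rRNA modification, had 0.68 ± 0.17 and Rrp9 -0.63 ± 0.17 (edgeR adjusted p 0.103 and 0.130).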

How the data were processed

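RNA sequencing of 12 brain libraries, 4 groups of 3, was analysed from 1 table per library. Per the file headers, the authors gave raw read counts for each gene, and all tests started from these counts. Per the file headers, the authors also gave FPKM, which was checked to equal reads over gene length and file total. In 1 table the authors gave an adjusted p-value, per the file headers, with no comparison named. The 12 deposited normalized columns were not used. Per the submitters' processing notes, STAR 2.5, HTSeq and DESeq2 were used with mm10, in roles not stated; the strand setting and the rule for multiply matching reads were not given in the sources used here.

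Tables were joined by gene ID, absent genes counting 0. EdgeR 4.0.16 (R 4.3.3) was run on all 12 libraries together (1 mean for each group, TMM, filterByExpr leaving 17208 genes, robust quasi-likelihood fit). Calls needed a Benjamini-Hochberg adjusted p, over all genes, under 0.05. The SE is the absolute log2 fold change over the square root of F. GC content and coding 50-base stretches came from GENCODE M21 transcripts, promoters from RefSeq (GRCm38.p6). Depth, 16.7 to 44.7 M reads, limits most the entries with few reads. The 3 THC_LPS libraries held 16.7, 22.4 and 20.3 M, and every other library at least 24.3 M. Depth therefore goes with that group, and its part in the lower values there was not tested. Libraries within a group differed beyond sampling noise (chi-square per degree of freedom at least 10.7). The fit was tested on simulated counts.

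Alternatives were DESeq2 1.42.0, limma 3.58.1 voom with sample weights, 2 other scalings, 2 other filters, the compared groups only, the replicate number as a block, loess trends (span 0.5) on GC content, length or both removed, and each library left out. Dropping the pair Veh_LPS replicate 1 and THC_LPS replicate 3 was added after seeing the data.

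Members and lists were chosen with earlier results of these data known. Named genes are the 3 members of smallest p per comparison, the 5 highest and 5 lowest by CPM, the paralog pairs and 15 genes listed by role. Genes named by level, pair or role, 35 in all, are given for LPS after THC, a comparison picked after results were seen; the closing section counts how often all 45 named genes changed sign in each comparison. Rps23, Rps29, Rpl19, Rps15 and the genes listed as not overlapping are outside that rule and were chosen after their values were seen. Values of some single genes are not reported here.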

Additional observations from a re-analysis of the deposited data

How the results depend on the processing

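Counts of called members were 0 in 4 comparisons under every alternative run. For LPS after THC the count was 1 with DESeq2, 11 with voom, 0 to 1 with 1 library left out (1, Rps4l, without THC_LPS replicate 1), 1 (Rps21) with Veh_LPS replicate 1 and THC_LPS replicate 3 left out together, and 0 otherwise. The median over the 89 members for LPS after vehicle, 0.09, was -0.06 with voom, -0.06 with that pair left out, and ran from -0.11 (without Veh_LPS replicate 1) to 0.19 with 1 library left out. For LPS after THC the leave-one-out range was -0.35 to -0.21, for THC without LPS 0.02 to 0.19 and for THC with LPS -0.36 to -0.05. Without mitochondrial genes and the most abundant transcript, Yam1, the read shares were 1.36% in Veh_Ctrl, 1.52% in THC_Ctrl, 1.52% in Veh_LPS and 1.29% in THC_LPS. Whether equal replicate numbers pair libraries is not given in the labels and was not settled. Correlations of same-numbered deviations were -0.128 to 0.101 and were not set against those of other pairs. With the number as a block, the 77-gene median for LPS after THC was -0.29 and no member was called.

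Of the 45 named genes, 35 changed sign in at least 1 alternative for LPS after vehicle, 12 for LPS after THC, 12 for THC without LPS, 20 for THC with LPS and 12 for the interaction. For LPS after THC these values were, with voom, -0.15 for Rpl5, -0.01 for Rpl4, -0.34 for Rpl22l1 and -0.39 for Rps27l. With the GC trend removed they were -0.20 for Rpl5, 0.18 for Rpl35, 0.09 for Rpl41, -0.28 for Rpl22l1 and -0.14 for Rps27l. With GC and length trends removed they were 0.05 for Rplp1, -0.15 for Rpl5, 0.04 for Rpl11, 0.25 for Rpl35, 0.16 for Rpl41, -0.20 for Rpl22l1 and -0.06 for Rps27l. With the length trend removed Rpl10 was 0.04, and with the replicate block Rpl22l1 was -0.02. With the pair of libraries left out they were -0.13 for Rpl5, -0.01 for Rpl4, -0.28 for Rpl22l1 and -0.41 for Rps27l. The cause was not tested.

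With 1 library left out, the log2 fold change for LPS after THC ran as follows: Rpl5 -0.13 to 0.12, Rpl11 -0.32 to 0.01, Rpl4 -0.01 to 0.18, Rpl23a -0.59 to 0.25, Rpl35 -1.01 to 0.31, Rpl41 -0.46 to 0.12, Rpl3l -0.11 to 1.42, Rpl10 -0.19 to 0.01, Rpl22l1 -0.28 to 0.19, Rps27l -0.41 to 0.25 and Rpl24 -0.73 to 0.10. Rps24 for LPS after vehicle ran from -0.01 to 0.30.

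Depth limits Rpl24 and the pseudogene-named entries most.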
